A study of Mus musculus with 13 samples.

Results

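The genes described here are 32 listed genes of peroxisome biogenesis and peroxisomal fatty acid oxidation, chosen by name, out of 24061 gene symbols counted in each of 13 mouse hearts. The list holds peroxins (Pex genes), the enzymes of peroxisomal beta and alpha oxidation, and membrane transporters, and all 32 were found in the files. It was chosen with earlier results of these data known. The hearts came from male C57BL/6N mice aged 13 weeks and fed chow. They carried either the unchanged carnitine palmitoyltransferase gene Cpt1b on both chromosomes (WT/WT, 4 hearts), the E3A knock-in allele of Cpt1b on one chromosome (WT/E3A, 4 hearts) or on both (E3A/E3A, 5 hearts). The allele changes the enzyme and does not remove the gene, so its read count does not check the genotype labels. Poly(A) RNA of the whole heart was sequenced as single-end reads of 100 nt, with 20.1 to 52.6 M counted reads per library. In 4 of the libraries the description field reads "Potential outlier", namely replicates 1 and 2 of E3A/E3A and replicate 1 of both other genotypes. They are called the labelled libraries here. Every comparison was made with all 13 libraries and with the 9 others, 3 hearts per genotype. Each sample is called a heart here, although the labels do not say that each comes from a separate animal.

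Peroxisomes are single-membrane organelles that shorten very long, branched and dicarboxylic fatty acids that mitochondria handle poorly, and hand the shortened chains on as carnitine esters or free acids. Enzymes enter from the cytosol in the folded state: receptors bind a targeting signal, dock at the membrane, release their cargo inside and are pulled back out with the help of ubiquitin ligases and an ATPase. CPT1B commits fatty acids to mitochondrial oxidation in heart muscle, and several peroxisomal genes, among them Pex11a, Ehhadh, Acaa1b and Crot, are known targets of PPAR alpha, a nuclear receptor that responds to fatty acids.

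Because PPAR alpha binds DNA through direct repeats of the sequence AGGTCA, that sequence was searched on both strands of RefSeq promoters (build GRCm38.p6, 250 bases before to 50 bases after each start). Of the 32 genes, 26 had an entry, with 31 promoters between them. AGGTCA was found in 3 of these promoters, against 16.3% of 32851 promoters of the same length. The full repeat with 1 base between the copies, AGGTCANAGGTCA, contains that sequence. It was found in 0 of the 31 and in 0.0396% of all promoters. The matches lay 109 bases before the start of Scp2, 173 bases before that of Pex11g and, on the opposite strand, at base 37 after the start of Phyh. A stretch is shown for the upstream matches, with the match in capitals. Beside them stand the 100 bases before the start of Pex11a, Ehhadh and Crot, in which these letters do not occur. These 3 genes lay wholly lower in E3A/E3A than in WT/WT with the unlabelled libraries, and so did Scp2 and Pex11g. The stretches therefore do not set lower genes against others. Starts are those of RefSeq. The stretches of Crot and Scp2 lie inside the gene as the GENCODE gene model of the same build draws it, which starts farther upstream.
Scp2 (chr4:108118624-108118683, minus strand): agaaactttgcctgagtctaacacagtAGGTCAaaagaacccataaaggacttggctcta
Pex11g (chr8:3467789-3467848, minus strand): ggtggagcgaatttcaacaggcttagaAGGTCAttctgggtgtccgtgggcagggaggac
Pex11a (chr7:79743132-79743231, minus strand): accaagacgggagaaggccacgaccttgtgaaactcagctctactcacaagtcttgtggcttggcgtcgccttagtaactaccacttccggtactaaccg
Ehhadh (chr16:21787835-21787934, minus strand): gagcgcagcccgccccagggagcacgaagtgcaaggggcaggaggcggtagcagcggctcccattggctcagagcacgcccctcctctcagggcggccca
Crot (chr5:8997147-8997246, minus strand): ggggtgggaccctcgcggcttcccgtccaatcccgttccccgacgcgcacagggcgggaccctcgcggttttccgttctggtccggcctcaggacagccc
A match or its absence describes the letters of the window and says nothing about binding in these hearts.

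In the 3 unlabelled WT/WT hearts the genes spanned a wide range of levels per length of transcript. Phyh, the first enzyme of alpha oxidation, was highest at 372 CPM per kb (SD 5.17, n = 3), where CPM is the read count scaled to library size with TMM factors. Scp2 followed with 65.4 CPM per kb, Abcd3 with 54.1, Pex19 with 53.3, Pxmp2 with 51.6 and Hsd17b4 with 48.7 CPM per kb. Among the peroxins Pex19 was followed by Pex6 at 22.4 and Pex2 at 17.5 CPM per kb. The lowest were Acaa1b at 0.162, Pex11g at 1.33 and Abcd2 at 1.45 CPM per kb. The hearts thus contained transcripts of every listed step, with the alpha oxidation enzyme Phyh above all others. The 9 cardiomyocyte markers were all present, with a summed level of 75074 to 84539 CPM in the 9 unlabelled hearts, and the 4 globin genes were listed at 0 in every heart.

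None of the 32 genes was called different between genotypes at an adjusted p under 0.05 by edgeR's quasi-likelihood test. Comparing E3A/E3A with WT/WT, edgeR called 0 of 32 with 13 libraries, where it called 0.00695% of 14387 genes, and 0 of 32 with 9 libraries, where it called 0.271% of 14373 genes. For WT/E3A against WT/WT the members called were 0 in both fits, against 0.0% and 0.0209% of all genes, and for E3A/E3A against WT/E3A again 0 in both, against 0.0% and 0.0417%. At an unadjusted edgeR p under 0.05 the 13-library fits held 1, 0 and 0 of the 32, all lower in the first-named genotype, where 0.619%, 0.487% and 0.563% of all genes were lower at that p. The 9-library fits held 6, 2 and 2 of the 32, again all lower, where 3.17%, 3.03% and 2.87% of all genes were. DESeq2 called 0 of the 32 with 13 libraries. With 9 libraries it called Hsd17b4 for E3A/E3A against WT/WT (log2 fold change -0.18, DESeq2 adjusted p = 0.0256). In that comparison DESeq2 called 97 of 11820 genes tested. For E3A/E3A against WT/E3A with 9 libraries it called Abcd3 (-0.18, DESeq2 adjusted p = 0.0252), where it called 34 of 13688 genes tested.

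Fold changes were small, and more of them were below 0 than among all genes. Because the genes were chosen with earlier results of these data known, this contrast with all genes is no independent evidence of a shift. With 9 libraries the log2 fold change of E3A/E3A against WT/WT was below 0 for 27 of 32 genes, against 49.4% of all genes tested, with a median of -0.07 against 0.00 for all genes. With 13 libraries it was below 0 for 28 of 32, against 56.3% of all genes, with a median of -0.08 against -0.02. For WT/E3A against WT/WT it was below 0 for 23 of 32 with 9 libraries (median -0.04, 50.5% of all genes) and for 20 of 32 with 13 (median -0.03, 50.6% of all genes). For E3A/E3A against WT/E3A the counts were 21 of 32 with 9 (median -0.04, 49.2% of all genes) and 24 of 32 with 13 (median -0.08, 55.0% of all genes). The 3 comparisons share their groups of hearts, so the counts are not independent of each other. The 13-library count rested on 1 library. Without WT/WT replicate 1 the E3A/E3A against WT/WT values were below 0 for 19 of 32 genes. Their median was -0.04, against 0.01 for all genes. Likewise, without WT/E3A replicate 1 the values of E3A/E3A against WT/E3A were below 0 for 17 of 32. Their median was -0.01, against 0.01 for all genes. In whole hearts, fewer cells of a type and less RNA per cell cannot be told apart.

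**Figure D1:**
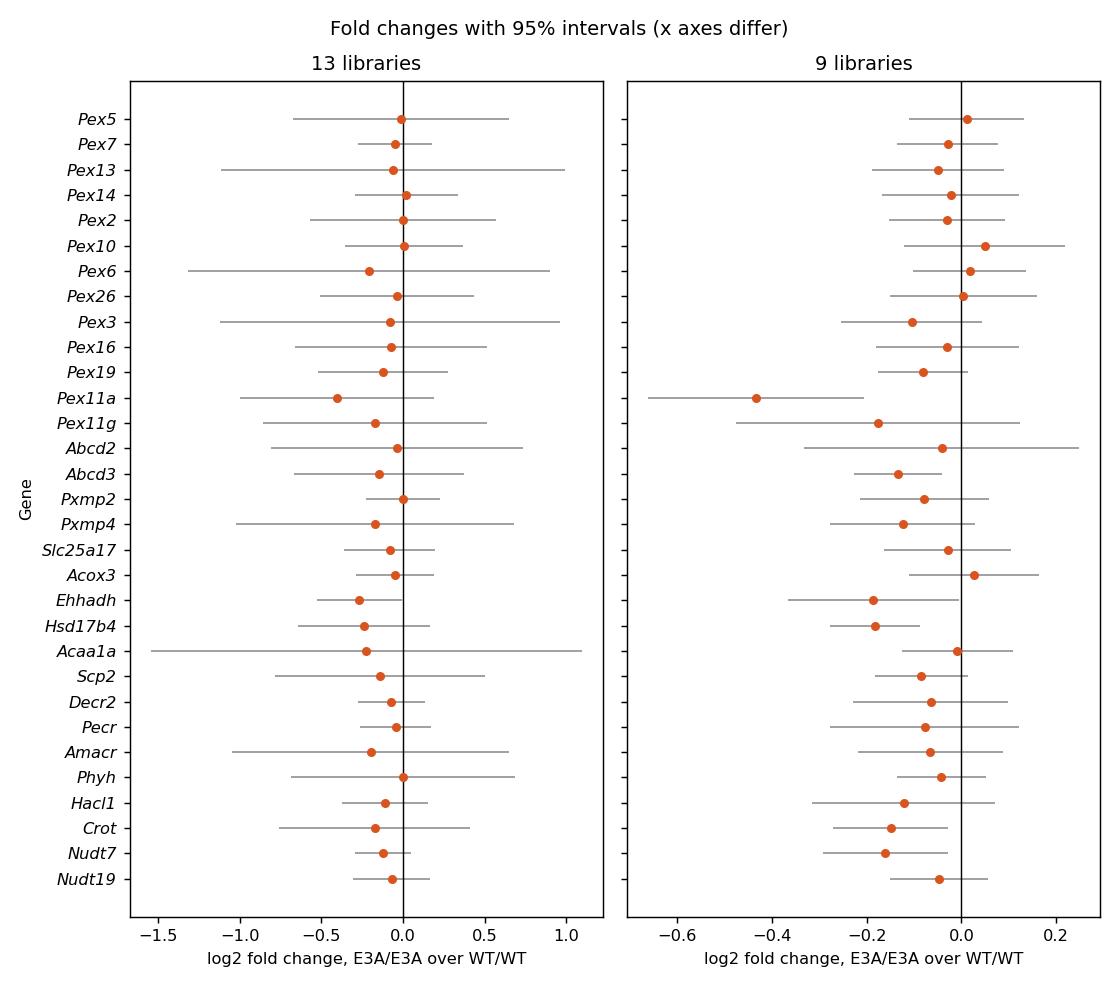
Log2 fold change of E3A/E3A over WT/WT (x axis, edgeR, with 95% intervals as bars) for 31 of the 32 genes (y axis, by role), with 13 libraries on the left and the 9 unlabelled libraries on the right, on different x scales. Acaa1b is left out because its interval runs off the scale. With 9 libraries Pex11a lies farthest from 0 at -0.43, and most intervals are far narrower than with 13.

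The precision of these values depended on the labelled libraries. The median standard error over the 32 genes for E3A/E3A against WT/WT was 0.25 on the log2 scale with 13 libraries and 0.06 with 9. With 9 libraries the 95% interval lay within 20% of no change for 27 of the 32 genes, and with 13 libraries for 7. For the genes other than Acaa1b the widest 9-library bounds of this comparison were a fall of 36.7% and a rise of 18.7%.

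Complete separation of the hearts was counted next, that is, every E3A/E3A heart below every WT/WT heart. The shares of all genes are given beside the counts with the same limit, that the genes were chosen with earlier results known. With the 9 libraries 11 of 32 genes separated in this way, where 6.69% of all genes did: Pex19, Pex3, Pex11a, Pex11g, Pxmp4, Abcd3, Ehhadh, Hsd17b4, Scp2, Crot and Nudt7. In the opposite direction 0 of 32 separated, where 7.36% of all genes did. With 13 libraries Ehhadh and Nudt7 separated (2 of 32, against 0.535% of all genes), and 0 did so in the opposite direction (0.32%). WT/E3A lay wholly below WT/WT for Pex3, Pex7, Pex11a, Ehhadh and Hacl1 with 9 libraries (5 of 32, against 6.32%) and for Ehhadh with 13 (1 of 32, against 0.591%), and wholly above for 0 of 32 in either set (6.34% and 0.528%). E3A/E3A lay wholly below WT/E3A for Abcd3, Hsd17b4 and Acaa1b with 9 libraries (3 of 32, against 5.25%) and for 0 of 32 with 13 (0.473%), and wholly above for 0 of 32 in either set (5.93% and 0.542%). Of the 6 fibroblast markers all 6 had a log2 fold change above 0 in the same 9 hearts, with a summed level of 1134 to 1152 CPM in WT/WT and 1169 to 1313 CPM in E3A/E3A, and edgeR called 0 of them. All 5 macrophage markers tested were above 0 as well, with a sum of 112 to 128 CPM in WT/WT and 125 to 138 CPM in E3A/E3A. So were all 4 skeletal muscle markers tested, with 1187 to 1286 CPM in WT/WT and 1227 to 1331 CPM in E3A/E3A. That sum was nearly all Ckm, at 1075, 1091 and 1149 CPM in WT/WT, and Acta1, at 188, 95.1 and 135 CPM. Tnnt3 was 0.457, 0.549 and 0.504 CPM and Mylpf 0.572, 0.471 and 0.504 CPM there. The sum therefore says little about skeletal muscle in the samples. All 7 hepatocyte markers were below 0, with 0.785 to 63.4 CPM in WT/WT and 1.37 to 15.4 CPM in E3A/E3A, and edgeR called 0 in each of these lists. Other lists were mixed, with 6 cardiomyocyte markers above 0 and 3 below, and 4 and 2 for endothelium. White adipocyte markers stood at 3 and 3, brown adipocyte markers at 1 and 1, and the 1 blood marker tested was above 0. The part of all these markers in the values was not tested.

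Import receptors and the docking complex showed little difference between genotypes. Pex5 and Pex7 are the receptors for the peroxisomal targeting signals, and Pex13 and Pex14 form the dock. For E3A/E3A against WT/WT with 9 libraries the log2 fold changes of these 4 genes ran from -0.05 to 0.01, and 0 of 4 separated the hearts. In the unlabelled hearts, replicates in order, Pex7 was 38.6, 38.2 and 38.03 CPM in WT/WT, 36.7, 35.6 and 37.9 CPM in WT/E3A and 37.9, 38.1 and 36.6 CPM in E3A/E3A. E3A/E3A against WT/WT gave a log2 fold change of -0.03 (SE 0.050, adjusted p = 0.955) by edgeR, and the groups overlapped. Pex7 in the labelled libraries stood at 35.9 CPM in WT/WT, 36.7 CPM in WT/E3A, and 28.5 and 40.7 CPM in E3A/E3A, close to the rest except for the lower E3A/E3A value. Pex13 was 35.5, 33.1 and 34.2 CPM in WT/WT, 31.5, 36.9 and 31.5 CPM in WT/E3A and 33.3, 33.05 and 33.2 CPM in E3A/E3A. Pex13 in the labelled libraries lay outside that range, at 8.73 CPM in WT/WT, 7.04 CPM in WT/E3A, and 14.6 and 19.4 CPM in E3A/E3A. Its log2 fold change was -0.05 (SE 0.065, adjusted p = 0.933) by edgeR with 9 libraries, and -0.06 with a standard error of 0.484 with 13. Pex5 and Pex14 had log2 fold changes of 0.01 and -0.02 with 9 libraries. Their mean levels over the 9 hearts were 37.9 CPM and 26.3 CPM.

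Receptor recycling had fewer values below 0 than the other groups with 9 libraries, but not with 13. Pex2 and Pex10 belong to the ubiquitin ligase that marks receptors for export, Pex6 is an ATPase that extracts them, and Pex26 anchors that ATPase. With 9 libraries 1 of these 4 genes had a log2 fold change below 0 for E3A/E3A against WT/WT, and the range was -0.03 to 0.05. With 13 libraries it was 3 of 4. Pex10 was 15.98, 15.9 and 17.8 CPM in WT/WT, 19.1, 15.9 and 18.6 CPM in WT/E3A and 16.7, 17.1 and 17.8 CPM in E3A/E3A. The groups overlapped, and its log2 fold change was 0.05 (SE 0.079, adjusted p = 0.949) by edgeR. Pex10 in the labelled libraries was higher, at 25.96 CPM in WT/WT, 22.4 CPM in WT/E3A, and 22.3 and 21.2 CPM in E3A/E3A. Pex6 was 67.6, 72.5 and 74.8 CPM in WT/WT, 69.7, 66.5 and 72.8 CPM in WT/E3A and 69.5, 76.3 and 71.8 CPM in E3A/E3A. Its log2 fold change was 0.02 (SE 0.056, adjusted p = 0.978) by edgeR, with overlapping groups. Pex6 in the labelled libraries reached 247 CPM in WT/WT, 250.3 CPM in WT/E3A, and 155 and 126 CPM in E3A/E3A, all above the other 9. Its direction is not fixed by these data: leaving out E3A/E3A replicate 4 or WT/WT replicate 2 put the 9-library log2 fold change at -0.02. Pex2 and Pex26 had log2 fold changes of -0.03 and 0.00. Over the 9 hearts they averaged 35.7 CPM and 16.2 CPM.

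The 3 genes of membrane assembly, Pex3, Pex16 and Pex19, insert membrane proteins into peroxisomes. Their log2 fold changes for E3A/E3A against WT/WT with 9 libraries were -0.10, -0.03 and -0.08. Pex19, the chaperone that carries new membrane proteins and the peroxin with the highest level, was 148, 155 and 152 CPM in WT/WT, 148, 145 and 153 CPM in WT/E3A and 146, 144 and 139 CPM in E3A/E3A. All 3 E3A/E3A hearts lay below all 3 WT/WT hearts by a few percent, and WT/E3A overlapped WT/WT. Its log2 fold change came to -0.08 (SE 0.044, adjusted p = 0.735) by edgeR, with a 95% interval of -0.18 to 0.01. Pex19 in the labelled libraries was higher throughout, at 226 CPM in WT/WT, 245 CPM in WT/E3A, and 174 and 179 CPM in E3A/E3A. Pex3, the membrane anchor for Pex19, separated E3A/E3A and WT/E3A from WT/WT in the 9 hearts, with 16.8 to 18.3 CPM in WT/WT, 15.6 to 16.5 CPM in WT/E3A and 15.0 to 16.8 CPM in E3A/E3A. The WT/WT and E3A/E3A ranges nearly touch. Pex16 averaged 16.01 CPM over the 9 hearts.

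Pex11a had the lowest value for E3A/E3A against WT/WT of any of the 32 genes with 9 libraries apart from the barely detected Acaa1b. Pex11 proteins elongate the peroxisomal membrane before the organelle divides, and Pex11a is the inducible form. Pex11a (ENSMUSG00000030545.9, chr7:79735957-79743131 in GRCm38) was 10.7, 13.2 and 10.7 CPM in WT/WT, 8.15, 10.4 and 9.75 CPM in WT/E3A and 8.53, 8.66 and 8.33 CPM in E3A/E3A. Both genotypes with the E3A allele lay wholly below WT/WT, and the E3A/E3A hearts lay within the range of WT/E3A. WT/WT averaged 11.5 CPM (SD 1.45, n = 3), against 9.43 CPM (SD 1.15, n = 3) for WT/E3A and 8.51 CPM (SD 0.162, n = 3) for E3A/E3A. The log2 fold change of E3A/E3A against WT/WT was -0.43 (SE 0.11, adjusted p = 0.158) by edgeR, with a 95% interval of -0.66 to -0.21. For WT/E3A against WT/WT it was -0.28 (SE 0.11, adjusted p = 0.736) by edgeR, and for E3A/E3A against WT/E3A -0.16 (SE 0.11, adjusted p = 0.819) by edgeR. Pex11a in the labelled libraries was lower, at 5.38 CPM in WT/WT, 4.75 CPM in WT/E3A, and 5.54 and 6.77 CPM in E3A/E3A, with the WT/WT and E3A/E3A values side by side. With 13 libraries its log2 fold change was -0.40 (SE 0.27, adjusted p = 1) by edgeR. Pex11g, another member of the family, was near 4 CPM and had a log2 fold change of -0.18 (SE 0.14, adjusted p = 0.861) by edgeR with 9 libraries.

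**Figure D2:**
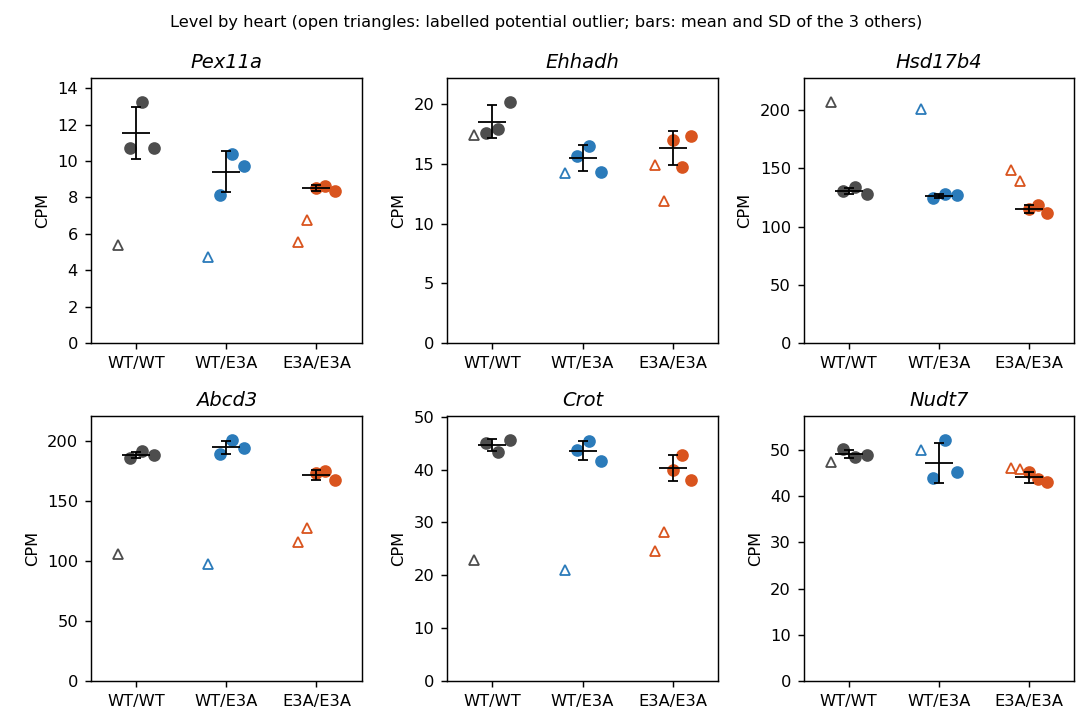
CPM (y axis, from 0) of the 6 genes with an unadjusted edgeR p under 0.05 for E3A/E3A against WT/WT with 9 libraries, by genotype (x axis). Each symbol is a heart, open triangles are the labelled libraries, and the black bars give the mean and SD of the 3 unlabelled hearts. Unlabelled E3A/E3A hearts lie below unlabelled WT/WT hearts in all 6 panels, and the triangles of Pex11a, Abcd3 and Crot lie below and those of Hsd17b4 above the filled symbols.

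All 5 membrane channels and transporters had log2 fold changes below 0 for E3A/E3A against WT/WT with 9 libraries, from -0.13 to -0.03, and 2 of 5 separated the hearts. Abcd3 (PMP70) is the ABC transporter that brings long-chain and branched acyl-CoA and bile acid precursors into the peroxisome. Abcd3 (ENSMUSG00000028127.10, chr3:121758774-121815302) was 186, 191 and 188 CPM in WT/WT, 189, 201 and 194 CPM in WT/E3A and 174, 175 and 167 CPM in E3A/E3A. The E3A/E3A hearts lay wholly below both other genotypes, and WT/E3A overlapped WT/WT. By log2 fold change E3A/E3A stood at -0.13 (SE 0.044, adjusted p = 0.346) against WT/WT and -0.18 (SE 0.044, adjusted p = 0.413) against WT/E3A by edgeR. Abcd3 in the labelled libraries was far lower, at 106 CPM in WT/WT, 97.3 CPM in WT/E3A, and 116 and 128 CPM in E3A/E3A, and there the WT/WT value was below both E3A/E3A values. Slc25a17, the carrier for coenzyme A and related cofactors, was 17.7, 17.3 and 18.2 CPM in WT/WT, 17.8, 19.3 and 18.8 CPM in WT/E3A and 16.98, 17.5 and 17.8 CPM in E3A/E3A. Its groups overlapped, and the log2 fold change was -0.03 (SE 0.063, adjusted p = 0.970) by edgeR. Slc25a17 in the labelled libraries was 14.8 CPM in WT/WT, 14.8 CPM in WT/E3A, and 12.8 and 15.3 CPM in E3A/E3A. Abcd2, a transporter of very long-chain and polyunsaturated acyl-CoA, the pore protein Pxmp2 and the membrane protein Pxmp4 had log2 fold changes of -0.04, -0.08 and -0.12. Their means over the 9 hearts were 8.21 CPM, 52.4 CPM and 27.6 CPM.

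Among the 6 beta oxidation enzymes 5 had a log2 fold change below 0 for E3A/E3A against WT/WT with 9 libraries. Apart from the barely detected Acaa1b the lowest were those of the bifunctional enzymes, which carry out the hydration and dehydrogenation steps. Hsd17b4, the D-bifunctional protein for branched and very long chains (chromosome 18), was 131, 134 and 128 CPM in WT/WT, 124, 128 and 127 CPM in WT/E3A and 115, 119 and 112 CPM in E3A/E3A. E3A/E3A lay wholly below both other genotypes. Means were 131 CPM (SD 2.77, n = 3) in WT/WT and 115 CPM (SD 3.48, n = 3) in E3A/E3A. The log2 fold change was -0.18 (SE 0.044, adjusted p = 0.153) against WT/WT and -0.13 (SE 0.045, adjusted p = 0.687) against WT/E3A by edgeR, with a 95% interval of -0.28 to -0.09 for the first. Hsd17b4 in the labelled libraries was higher, at 207 CPM in WT/WT, 201 CPM in WT/E3A, and 148 and 139 CPM in E3A/E3A.

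Ehhadh, the L-bifunctional enzyme used for dicarboxylic acids, was the only one of the 32 genes for which both comparisons with WT/WT separated the hearts with 9 and with 13 libraries. Ehhadh (ENSMUSG00000022853.7, chr16:21761287-21787807) was 17.6, 17.9 and 20.1 CPM in WT/WT, 15.6, 16.5 and 14.3 CPM in WT/E3A and 16.98, 14.7 and 17.4 CPM in E3A/E3A. Ehhadh in the labelled libraries was 17.4 CPM in WT/WT, 14.2 CPM in WT/E3A, and 14.9 and 11.9 CPM in E3A/E3A. The WT/WT hearts ran from 17.4 to 20.1 CPM, and the highest value in any heart with the allele was 17.4 CPM as well, so the gap is narrow. The log2 fold change of E3A/E3A against WT/WT was -0.19 (SE 0.084, adjusted p = 0.641) with 9 libraries and -0.27 (SE 0.12, adjusted p = 1) with 13 by edgeR, where the unadjusted p = 0.0439 was the lowest of the 32 genes. For WT/E3A against WT/WT it was -0.26 (SE 0.085, adjusted p = 0.681) with 9 libraries by edgeR, and WT/E3A overlapped E3A/E3A.

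Scp2, which encodes a thiolase and a sterol carrier, was 178, 168 and 172 CPM in WT/WT, 164, 173 and 174 CPM in WT/E3A and 166, 160.3 and 163 CPM in E3A/E3A. E3A/E3A lay below WT/WT by little, with a log2 fold change of -0.09 (SE 0.046, adjusted p = 0.735) by edgeR. Scp2 in the labelled libraries was higher, at 348 CPM in WT/WT, 362 CPM in WT/E3A, and 253 and 237 CPM in E3A/E3A. Of its transcript, 32.2% of 100-base windows also occur in the copy Scp2-ps2, so its count is uncertain to that extent. Acox3, the oxidase for branched chains, and the thiolase Acaa1a had log2 fold changes of 0.03 and -0.01 with 9 libraries. The first averaged 30.7 CPM and the other 64.6 CPM over the 9 hearts. Acaa1b, the inducible thiolase, had 0 to 45 reads per heart: in replicate order 45, 35, 0 and 1 in WT/WT, 9, 13, 11 and 13 in WT/E3A, and 7, 10, 2, 9 and 3 in E3A/E3A. Its values spread over a wide range within WT/WT, and 22.6% of its windows are shared with Acaa1a. The summed level of the 7 hepatocyte markers was 17.1, 63.4, 0.785 and 2.08 CPM in the same WT/WT hearts, 6.12, 41.7, 15.7 and 24.5 CPM in WT/E3A, and 1.08, 17.6, 1.37, 15.4 and 8.94 CPM in E3A/E3A. In WT/WT the hearts with many Acaa1b reads were those with the higher marker sums. All 7 markers had a log2 fold change below 0 for E3A/E3A against WT/WT, edgeR called 0 of them, and their part in the Acaa1b values was not tested.

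Auxiliary enzymes prepare unsaturated and branched chains for beta oxidation, and alpha oxidation takes the acid-end carbon off chains whose methyl branch blocks beta oxidation. Decr2, the peroxisomal dienoyl-CoA reductase, was 16.5, 15.1 and 16.9 CPM in WT/WT, 15.2, 16.8 and 15.5 CPM in WT/E3A and 15.6, 16.6 and 14.3 CPM in E3A/E3A, with a log2 fold change of -0.06 (SE 0.076, adjusted p = 0.924) by edgeR and overlapping groups. Decr2 in the labelled libraries was 18.6 CPM in WT/WT, 16.98 CPM in WT/E3A, and 16.8 and 16.6 CPM in E3A/E3A, near the rest. Amacr, the racemase for branched acyl-CoA, was 34.7, 38.5 and 35.6 CPM in WT/WT, 36.6, 30.96 and 34.8 CPM in WT/E3A and 32.6, 36.8 and 34.5 CPM in E3A/E3A. Its groups overlapped, with a log2 fold change of -0.07 (SE 0.071, adjusted p = 0.911) by edgeR. Amacr in the labelled libraries was far higher, at 90.9 CPM in WT/WT, 93.9 CPM in WT/E3A, and 60.7 and 52.7 CPM in E3A/E3A. Pecr, an enoyl-CoA reductase, had a log2 fold change of -0.08. Pecr averaged 7.96 CPM over the same hearts. Phyh, which hydroxylates phytanoyl-CoA, was 537, 526 and 539.8 CPM in WT/WT, 508, 542 and 539 CPM in WT/E3A and 531, 509.8 and 517 CPM in E3A/E3A. The groups overlapped at this high level, and the log2 fold change was -0.04 (SE 0.044, adjusted p = 0.905) by edgeR, with a 95% interval of -0.14 to 0.05. Phyh in the labelled libraries was lower, at 224 CPM in WT/WT, 204 CPM in WT/E3A, and 321 and 408 CPM in E3A/E3A. Hacl1, the lyase of alpha oxidation, was 10.7, 11.1 and 10.4 CPM in WT/WT, 10.3, 9.52 and 10.2 CPM in WT/E3A and 10.6, 10.4 and 8.54 CPM in E3A/E3A, with a log2 fold change of -0.12 (SE 0.091, adjusted p = 0.845) by edgeR. Hacl1 in the labelled libraries was 9.68 CPM in WT/WT, 7.48 CPM in WT/E3A, and 10.4 and 8.65 CPM in E3A/E3A. WT/E3A lay below WT/WT for Hacl1, E3A/E3A overlapped WT/WT, and 52.7% of its windows are shared with the annotated gene Gm49387.

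The 3 genes of carnitine and coenzyme A handling had log2 fold changes of -0.15 (Crot), -0.16 (Nudt7) and -0.05 (Nudt19) for E3A/E3A against WT/WT with 9 libraries. Nudt19, another coenzyme A hydrolase, averaged 54.3 CPM over the 9 hearts. Crot transfers medium-chain acyl groups to carnitine so that shortened chains can leave for mitochondria. Crot (ENSMUSG00000003623.4, chr5:8966033-8997324) was 44.95, 43.4 and 45.5 CPM in WT/WT, 43.8, 45.4 and 41.6 CPM in WT/E3A and 39.9, 42.8 and 38.1 CPM in E3A/E3A. E3A/E3A lay wholly below WT/WT and overlapped WT/E3A, with a log2 fold change of -0.15 (SE 0.057, adjusted p = 0.491) by edgeR and an interval of -0.27 to -0.03. Crot in the labelled libraries was lower, at 22.8 CPM in WT/WT, 20.9 CPM in WT/E3A, and 24.6 and 28.2 CPM in E3A/E3A. Nudt7, which hydrolyses coenzyme A inside peroxisomes, was 50.3, 48.6 and 48.96 CPM in WT/WT, 44.04, 52.1 and 45.3 CPM in WT/E3A and 45.4, 43.8 and 43.2 CPM in E3A/E3A. Nudt7 in the labelled libraries was 47.5 CPM in WT/WT, 49.98 CPM in WT/E3A, and 46.2 and 45.9 CPM in E3A/E3A, within a few CPM of the others, and E3A/E3A lay wholly below WT/WT with and without them. Its log2 fold change was -0.16 (SE 0.061, adjusted p = 0.498) with 9 libraries and -0.12 (SE 0.079, adjusted p = 1) with 13 by edgeR.

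Calls by edgeR were made in a further gene list drawn up as peroxisomal. Of its 68 genes 66 were in the files, with 58 tested with 9 libraries and 57 with 13. Where the products of these genes lie in the cell was not checked. This list too was chosen with earlier results of these data known, so its contrast with all genes is no independent evidence. For E3A/E3A against WT/WT with 9 libraries 45 of 58 had a log2 fold change below 0 (median -0.05), against 49.4% of all genes. Among these 58 edgeR called 4 lower (0.216% of all genes) and 0 higher. With 13 libraries 45 of 57 were below 0 (median -0.08), against 56.3% of all genes, and 0 were called. The 4 that fell were Cat (catalase), Ech1, a dienoyl-CoA isomerase, Ephx2, an epoxide hydrolase, and Hsdl2, a hydroxysteroid dehydrogenase-like protein. Cat was 236, 233 and 233 CPM in WT/WT, 219.7, 223 and 221 CPM in WT/E3A and 189, 199 and 192 CPM in E3A/E3A, a log2 fold change of -0.28 (SE 0.042, adjusted p = 0.0122) by edgeR. Among these 9 hearts all E3A/E3A values of Cat lay below all WT/E3A values, and those below all WT/WT values. Cat in the labelled libraries was lower, at 141 CPM in WT/WT, 128 CPM in WT/E3A, and 137 and 149.8 CPM in E3A/E3A, and there the order did not hold. Ech1 was 1373, 1450.1 and 1459 CPM in WT/WT, 1156, 1237 and 1344 CPM in WT/E3A and 1118, 1122 and 1028 CPM in E3A/E3A, a log2 fold change of -0.39 (SE 0.057, adjusted p = 0.0103) by edgeR. Ech1 in the labelled libraries was 1742 CPM in WT/WT, 1274 CPM in WT/E3A, and 1422 and 1345 CPM in E3A/E3A. Ephx2 was 258, 273 and 269.5 CPM in WT/WT, 223, 256 and 251 CPM in WT/E3A and 213, 219 and 204 CPM in E3A/E3A, a log2 fold change of -0.33 (SE 0.055, adjusted p = 0.0205) by edgeR. Ephx2 in the labelled libraries was 291 CPM in WT/WT, 238 CPM in WT/E3A, and 244 and 247 CPM in E3A/E3A. Hsdl2 was 325, 326 and 323 CPM in WT/WT, 285, 321 and 306 CPM in WT/E3A and 269, 273 and 259.8 CPM in E3A/E3A, a log2 fold change of -0.28 (SE 0.048, adjusted p = 0.0264) by edgeR. Hsdl2 in the labelled libraries was 287 CPM in WT/WT, 267 CPM in WT/E3A, and 225 and 239.7 CPM in E3A/E3A. For the other 3 genes too E3A/E3A was lowest by mean of the 9 hearts and WT/E3A in between.

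These 4 calls depended on single hearts, although the 9-library log2 fold changes stayed between -0.42 and -0.26 whichever heart was left out. Without WT/WT replicate 3, without WT/WT replicate 4 or without E3A/E3A replicate 5, edgeR called 0 of the 4, with adjusted p of 0.0549 to 0.161. It called 1 without E3A/E3A replicate 3 (Ech1), and 3 without E3A/E3A replicate 4 or without WT/WT replicate 2 (Cat, Ech1 and Ephx2 each time). With the title prefix as a block it called 0, with edgeR adjusted p of 0.14 to 0.147.

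Each sample title starts with 1 of 4 codes (C2, C3, C4, C6), which the sources used here do not explain. The code was treated as a possible batch. C2 holds the labelled WT/WT and E3A/E3A hearts only, and C3 holds unlabelled hearts of all genotypes. On the scale of log2(CPM + 0.1), E3A/E3A lay below WT/WT for 22 of 32 genes within C2 (2 hearts against 1, median -0.12) and for 23 of 32 within C3 (2 hearts against 1, median -0.05). Pex11a differed by 0.18 within C2 and -0.34 within C3, Abcd3 by 0.20 and -0.13, and Crot by 0.21 and -0.20, so the direction of these genes was opposite in the labelled hearts. Ehhadh differed by -0.39 and -0.03, Hsd17b4 by -0.52 and -0.20, and Nudt7 by -0.05 and -0.18, the same direction in both. Within C2, where all hearts are labelled, genes raised in all 4 labelled libraries were lower in E3A/E3A, such as Acaa1a (-0.85) and Pex6 (-0.82). Genes lowered in all 4 were higher, such as Pex3 (1.13) and Pex13 (0.94), except Slc25a17 (-0.08). For Acaa1a, Pex6, Pex3 and Pex13 the WT/WT heart lay farther from the unlabelled hearts. Genotype and the size of this displacement cannot be told apart within C2. C6 holds only WT/WT replicates 3 and 4 and C4 holds no WT/WT heart, so neither gives a value for E3A/E3A against WT/WT. Of the unlabelled WT/WT hearts only replicate 2 shares its code with other genotypes. In the 9-library comparisons with WT/WT, code and genotype can therefore hardly be told apart. With the code as a block there, the log2 fold change of Ehhadh for E3A/E3A against WT/WT was -0.07, from -0.19. For WT/E3A against WT/WT it was -0.10, from -0.26. That of Nudt7 for E3A/E3A against WT/WT was -0.21, from -0.16. For WT/E3A against WT/WT the only prefix with both was C3 (1 heart against 1), with 19 of 32 genes below 0 and a median of -0.03. Within C3 21 of 32 genes were below 0 for E3A/E3A against WT/E3A (median -0.03), and within C4 19 of 32 (median -0.05). C4 includes the labelled WT/E3A replicate 1, without which the count was again 19 of 32 and the median -0.01.

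The largest differences among these genes were those between labelled and unlabelled libraries, and they ran in both directions. In all 4 labelled libraries 13 genes lay above the range of the 9 others, where 26.1% of all genes did: Pex5, Pex6, Pex10, Pex14, Pex16, Pex19, Pex26, Pex11g, Hsd17b4, Acaa1a, Scp2, Amacr and Nudt19. Their mean CPM was 1.18 to 3.34 times that of the other hearts, with Acaa1a highest. In all 4 labelled libraries 10 genes lay below that range, where 26.9% of all genes did: Pex2, Pex3, Pex13, Pex11a, Abcd2, Abcd3, Pxmp4, Slc25a17, Phyh and Crot. Their means were 0.370 to 0.804 times those of the others, with Pex13 lowest. The 9 remaining genes did neither. Partners in 1 complex thus stood on opposite sides: in the dock, Pex14 was 1.30 times and Pex13 0.370 times the level of the other hearts, and in membrane assembly Pex19 was 1.39 times and Pex3 0.388 times. Counted per library, 17 genes were above and 10 below the range of the 9 others in WT/WT replicate 1 (39.9% and 40.0% of all genes), 15 and 13 in WT/E3A replicate 1 (39.1% and 40.6%), 14 and 11 in E3A/E3A replicate 1 (37.1% and 36.9%), and 15 and 11 in E3A/E3A replicate 2 (32.2% and 33.5%).

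**Figure D3:**
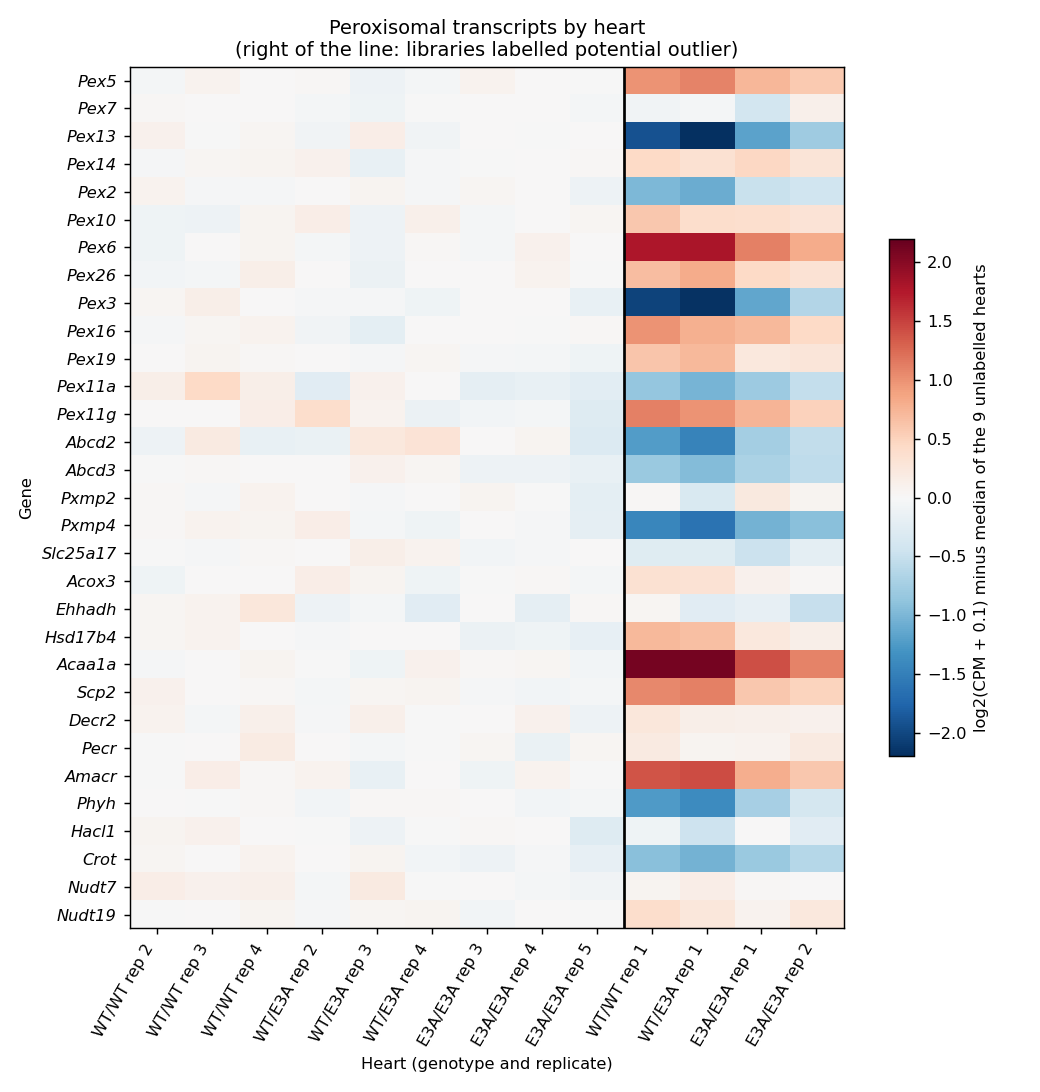
Each cell is log2(CPM + 0.1) of a gene (y axis, 31 of the 32 by role) in a heart (x axis) minus the median of the 9 unlabelled hearts, red above and blue below. The 9 columns left of the line are nearly white and the 4 labelled libraries right of it are strongly coloured, with Acaa1a and Pex6 most above and Pex13 and Pex3 most below. Acaa1b is left out because of its few reads.

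The direction of this displacement went with the base composition of the transcript. The median GC content of the longest coding transcript was 55.0% for the 13 genes above and 44.3% for the 10 below. Across the 32 genes Spearman's rho between GC content and the mean log2 difference of labelled and unlabelled libraries was 0.70, and across 13733 tested genes with a transcript it was 0.69. With transcript length rho was -0.11 across the 32 and -0.23 across all. These are descriptions across genes that share the same 13 libraries, so no p is given. The cardiomyocyte markers were split as well: in all 4 labelled libraries 5 of 9 lay above the range of the other hearts, 1 lay below it and 3 did neither. Their sum, which reached 181944 CPM there, was mostly Myh6, the alpha myosin heavy chain, at 69009 to 117185 CPM against 35823 to 43386 CPM in the others. Pln (phospholamban) was the marker below, at 783 to 2482 CPM against 5791 to 6571 CPM. The part of GC content, RNA quality or cell makeup in the displacement was not tested.

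**Figure D4:**
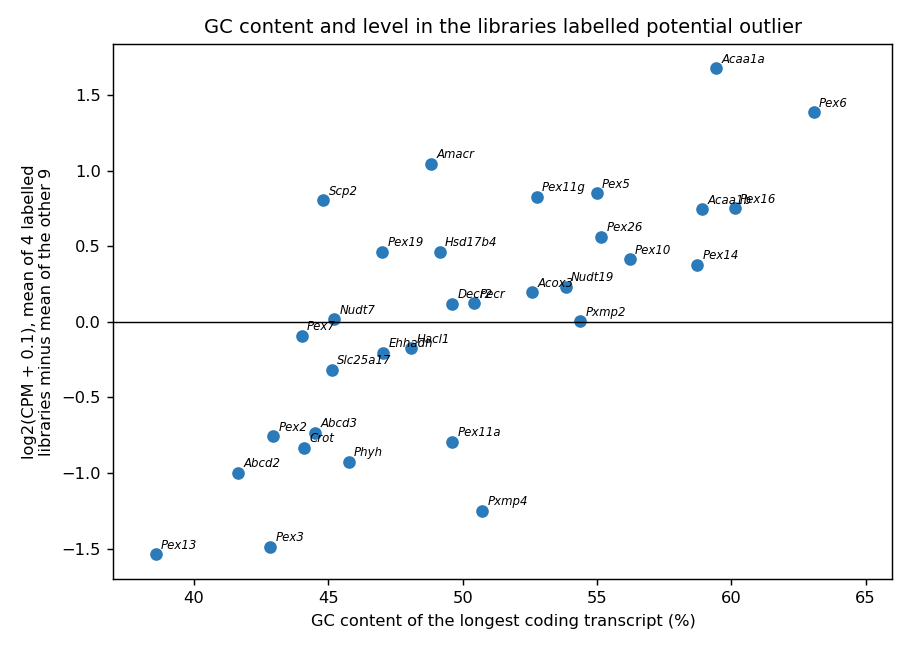
GC content of the longest coding transcript in percent (x axis) against the mean log2(CPM + 0.1) of the 4 labelled libraries minus that of the 9 others (y axis). Each of the 32 points is a gene. Genes of low GC content such as Pex13 lie below 0 and genes of high GC content such as Pex6 and Acaa1a above it, with Scp2 and Pxmp4 off the trend.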

How the data were processed

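The authors deposited a count file for each heart, with whole numbers of reads by gene symbol. Per the submitters' processing notes the tools were STAR 2.4.0 and featureCounts 1.4.4 and the builds mm10 and GRCm38. How strand and multi-mapping reads were handled is not given in the sources used here. RNA was taken with QIAzol and RNeasy and sequenced on an Illumina HiSeq, per the labels' protocols. The 32 genes and the gene lists were chosen with earlier results of these data known. The labels describe 13 samples and do not say that each is a separate animal, so p-values measure the spread between these samples.

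The counts were fitted with edgeR 4.0.16 (R 4.3.3) after filterByExpr on genotype and TMM scaling, as 1 robust quasi-likelihood fit over the 3 genotypes with Benjamini-Hochberg adjustment over all genes tested (14387 with 13 libraries, 14373 with 9). An adjusted p under 0.05 counted as a call. All 32 genes passed the filter in both fits. Standard errors were derived from the F statistic, and intervals are at 95%. CPM of single hearts used TMM factors over all 13 libraries, and 0.1 CPM was added for log2 differences. Genes given heart by heart were those with the lowest p in each of 9 role groups in either fit and the 3 with the highest CPM. Of the further list, called genes are given. Some genes of that list are not reported here and were left out of its counts. Alternatives were RLE factors, no filter, DESeq2 1.42.0, the title prefix as a block, only the 2 genotypes compared, the potential outlier label as a term, and leaving out each library. The edgeR script was tested on simulated data. Depth of 20.1 to 52.6 M reads, with no molecular identifiers, sets the counting error. Replicates carry no numbers in the labels and were numbered in accession order.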

Additional observations from a re-analysis of the deposited data

Results flagged for a closer look

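In a group of 4 or 5 hearts, a heart was marked where its gap to the nearest other, divided by the range of the group, passed Dixon's 95% critical value. Chance marks about 1 in 20 groups. WT/WT replicate 1 stood far above the other 3 WT/WT hearts for 11 of the 32 genes: Pex5 at 75.1, Pex14 at 35.8, Pex6 at 247, Pex16 at 32.4, Pex19 at 226, Pex11g at 8.06, Hsd17b4 at 207, Acaa1a at 277, Scp2 at 348, Amacr at 90.9 and Nudt19 at 70.6 CPM. WT/WT replicate 1 stood far below the other 3 WT/WT hearts for 7 of the 32 genes: Pex13 at 8.73, Pex2 at 17.8, Pex3 at 4.02, Abcd3 at 106, Pxmp4 at 10.1, Phyh at 224 and Crot at 22.8 CPM. WT/E3A replicate 1 stood far above the other 3 WT/E3A hearts for 9 of the 32 genes: Pex5 at 81.3, Pex6 at 250.3, Pex26 at 28.7, Pex16 at 27.8, Pex19 at 245, Hsd17b4 at 201, Acaa1a at 278, Scp2 at 362 and Amacr at 93.9 CPM. WT/E3A replicate 1 stood far below the other 3 WT/E3A hearts for 6 of the 32 genes: Pex2 at 16.7, Pex3 at 3.62, Abcd3 at 97.3, Pxmp2 at 41.7, Phyh at 204 and Crot at 20.9 CPM. These are libraries that the labels describe as potential outliers. Ehhadh in WT/WT replicate 4, an unlabelled heart, was marked high at 20.1 CPM. In the E3A/E3A group, where 2 of 5 libraries carry the label, 0 of the 32 genes had a marked heart. The gap is taken to the nearest other heart, so 2 libraries displaced to the same side shield each other. For Acaa1a, E3A/E3A replicates 1 and 2 were 173 and 137 CPM, and replicates 3, 4 and 5 were 65.2, 66.6 and 62.0 CPM. The count of 0 therefore does not show that this group lacks displaced libraries.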

How the results depend on the processing

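Under the alternatives run, the number of the 32 genes called stayed at 0 in every comparison except with DESeq2 and 9 libraries, which called 1 (Hsd17b4) for E3A/E3A against WT/WT and 1 (Abcd3) for E3A/E3A against WT/E3A; leaving out each library gave 0 to 0. Of the further list, DESeq2 with 9 libraries also called Cat (DESeq2 adjusted p = 0.00353) for E3A/E3A against WT/E3A. The number of all genes called was less stable. For E3A/E3A against WT/WT with 13 libraries it was 1, and 0 with no filter, with the title prefix as a block and with only the 2 genotypes, 24 with DESeq2, 8 with the potential outlier label as a term and 0 to 1 on leaving out 1 library. For E3A/E3A against WT/E3A with 13 it was 0, 3 with DESeq2 and 1 with the label as a term. With 9 libraries E3A/E3A against WT/WT gave 39, 97 with DESeq2, 10 with the prefix block and 8 (without WT/WT replicate 4) to 43 on leaving out 1 library. WT/E3A against WT/WT gave 3, 5 with no filter, 18 with DESeq2, 0 with the prefix block, 8 with only the 2 genotypes and 0 to 12 (without WT/WT replicate 2) on leaving out 1. E3A/E3A against WT/E3A gave 6, 10 with no filter, 34 with DESeq2, 2 with the prefix block and 1 to 13 on leaving out 1. The cause of these shifts was not tested. Fits that leave some hearts out also hold fewer samples.

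The median log2 fold change of the 32 genes for E3A/E3A against WT/WT stayed below 0 in all 19 alternatives with 13 libraries (-0.11 to -0.04) and all 14 with 9 (-0.08 to -0.05). That of WT/E3A against WT/WT turned to 0.01 with the prefix block and 13 libraries, from -0.03. With 9 libraries, 27 genes were below 0 for E3A/E3A against WT/WT in the main fit. That count was lowest at 23 with the prefix block. It was highest at 29, without E3A/E3A replicate 4 or without WT/WT replicate 2. Of the 63 values of named genes per fit, 36 had the other sign in at least 1 alternative with 13 libraries and 10 with 9. In none of these was the main value called, or both values farther than their standard error from 0. With 13 libraries the prefix block turned Abcd3 and Crot to 0.05 and 0.04 for E3A/E3A against WT/WT. Other sign changes there were larger. Pex13 turned to 0.41 from -0.06 with the prefix block. Without WT/WT replicate 1, Pex6 turned to 0.47 from -0.21, Amacr to 0.26 from -0.20 and Scp2 to 0.18 from -0.14. No paired analysis was possible because the labels give no replicate numbers. Depth limits Acaa1b, whose reads are too few for a fold change. Of the other genes Pex11g, with 75 to 178 reads per unlabelled heart, had the widest 9-library standard error for E3A/E3A against WT/WT (0.14).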
